A study of Homo sapiens with 6 samples.

Results

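The angiogenic growth factor genes were 10 genes chosen by their symbols: the vascular endothelial growth factor (VEGF) family genes VEGFA, VEGFB, VEGFC and PGF, the angiopoietin genes ANGPT1 and ANGPT2, the angiopoietin-like gene ANGPTL4, the fibroblast growth factor gene FGF2, and the platelet-derived growth factor (PDGF) genes PDGFA and PDGFB. They were 10 of the 26184 genes and loci in the table of counts. A read was counted in at least 1 library for 9 of them, and 8 had enough counts to be tested. The libraries came from the human hepatocellular carcinoma cell line Huh7, labelled as wild type. Huh7 P was the untreated parental line, and Huh7 LR was the lenvatinib-resistant line, raised from Huh7 P by exposure to lenvatinib at concentrations from 1 up to 20 μM over 10 months and then kept in medium with 20 μM. Each line gave 3 samples, described as independent. All 3 Huh7 LR samples came from 1 derived line, so the p-values measure the spread between these samples and not between separate derivations, and whether lenvatinib was in the medium at harvest is not given in the sources used here.

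Most angiogenic growth factors are secreted proteins that act on receptor tyrosine kinases, chiefly on endothelial cells and on the pericytes around them. Tumour cells are a major source of these factors. VEGF ligands drive endothelial growth and permeability, angiopoietins set vessel stability, and PDGF chains recruit pericytes and fibroblasts. Hepatocellular carcinoma is a highly vascular tumour. Lenvatinib inhibits receptors of several of these ligands, namely the VEGF and fibroblast growth factor receptors and PDGF receptor alpha. Its further targets are KIT and RET, which are not receptors of these ligands.

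Of the 10 genes, 5 were higher in Huh7 LR (ANGPTL4, PDGFA, VEGFA, VEGFB and PGF) and 1 was lower (ANGPT1) with a threshold of 0.05 on the adjusted p of edgeR's quasi-likelihood test, fitted across the whole table. FGF2 and PDGFB did not pass the test, ANGPT2 had too few counts to be tested, and VEGFC had no count. Of all 17531 genes and loci tested, 23.3% were higher and 22.4% lower in Huh7 LR by the same rule, so calls in either direction were common in this comparison (45.7% in all). With a stricter rule (a threshold of 0.001 and more than 2-fold), ANGPTL4 and PDGFA were called higher and no member was called lower, against 4.43% and 1.78% of all genes and loci tested (6.21% in all). The 3 libraries of Huh7 LR lay above the 3 of Huh7 P for 5 members and below them for 1, against 28.2% and 27.7% of all genes and loci tested (55.9% in all), so non-overlap by itself was also common. The median log2 fold change (Huh7 LR over Huh7 P) was 0.49 over the 8 members tested and 0.0046 over all genes and loci tested.

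ANGPTL4 and PDGFA, as the members with a change above 2-fold, are shown here with the 250 bases before a transcription start site annotated by RefSeq on GRCh38.p14. The ANGPTL4 bases lie at chr19:8363905-8364154 on the plus strand, before a start site 866 bases inside the gene as GENCODE 29 bounds it. The PDGFA bases lie at chr7:520227-520476 and are read on the minus strand, before 1 of the 4 PDGFA start sites in the RefSeq table, the one whose downstream bases were in a GENCODE 29 transcript, 70 bases inside the gene. Both are written 5′ to 3′, and capitals mark matches on either strand to the core of the hypoxia response element (ACGTG or GCGTG) and to the GC box (GGGCGG).
ANGPTL4: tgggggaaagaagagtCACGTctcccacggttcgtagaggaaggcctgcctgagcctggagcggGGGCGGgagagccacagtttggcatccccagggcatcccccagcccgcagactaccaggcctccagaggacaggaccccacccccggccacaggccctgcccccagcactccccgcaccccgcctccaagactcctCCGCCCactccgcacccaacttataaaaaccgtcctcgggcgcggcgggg
PDGFA: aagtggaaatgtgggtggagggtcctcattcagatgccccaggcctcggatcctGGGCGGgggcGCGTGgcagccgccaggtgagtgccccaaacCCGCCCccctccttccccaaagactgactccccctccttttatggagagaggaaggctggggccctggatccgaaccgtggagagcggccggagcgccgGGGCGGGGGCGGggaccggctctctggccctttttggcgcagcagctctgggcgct
The ANGPTL4 window held 1 match to ACGTG, on the minus strand, and 2 to GGGCGG. The PDGFA window held 1 match to GCGTG and 4 to GGGCGG. Windows of the same length with a match made up 18.5% of all 35116 RefSeq windows for ACGTG, 32.2% for GCGTG and 42.6% for GGGCGG, so none of these letters was rare. Neither window held the AP-1 motif TGAGTCA, which is TGACTCA on the other strand (4.203% of windows), or the direct repeat element (DR1) bound by nuclear receptors such as the PPARs (0.0171%). Windows were matched for 6 of the 10 members (ANGPTL4, PDGFA, FGF2, VEGFB, VEGFC and PGF), and these matches are descriptions of the letters only.

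Library totals ranged from 62738937 to 71427573 counts for Huh7 P and from 63233655 to 70768720 for Huh7 LR, so depth did not separate the lines. A count of 0 allowed a level of up to 0.0420 to 0.0478 CPM (counts scaled by library total), by counting error only. That range uses the library total alone, while the other CPM values here are TMM-scaled. All 10 hepatocyte markers examined, ALB and AFP among them, had counts, and 5 of them (FGB, ALB, TTR, APOA1 and TF) were higher in Huh7 LR and none lower. This count stands beside 23.3% higher and 22.4% lower over all genes and loci tested. The 10 hepatocyte markers summed to 43708 to 52829 CPM in Huh7 P and 56088 to 59169 CPM in Huh7 LR. The text on RNA extraction in the labels names an insect instead. The defining endothelial genes CDH5, EMCN, ROBO4 and ERG, the fibroblast and muscle genes DCN and DES, and the platelet gene PF4 had no count in any library. In total 6 of 10 endothelial, 8 of 10 pericyte and fibroblast, and 9 of 10 leukocyte and platelet markers had a count in some library. Their summed levels were 39.8 to 48.3 CPM in Huh7 P and 66.2 to 72.2 CPM in Huh7 LR for the endothelial list, 8.10 to 9.79 and 10.4 to 15.1 CPM for the pericyte and fibroblast list, and 130 to 140 and 56.7 to 64.3 CPM for the leukocyte and platelet list. Most of the endothelial sum was PECAM1, an adhesion molecule, at 43.95 CPM in Huh7 P and 68.7 CPM in Huh7 LR, and the leukocyte sum fell with LYZ, the gene of lysozyme (63.7 and 9.19 CPM). Called markers on these lists were, besides PECAM1, the collagen gene COL1A1 (1.28 and 4.59 CPM, adjusted p 9.12e-05 in edgeR's quasi-likelihood test) and PDGFRB (0.808 and 1.44 CPM, adjusted p 0.00953) as higher in Huh7 LR, and CD68, LYZ and RGS5 as lower, the last lost without any of 4 libraries. The endothelial gene VWF, with 0, 0 and 8 counts in the parental libraries and 19, 26 and 21 in the resistant ones, was also called higher, but it passed the low-count filter only through Huh7 LR. The part of these markers in the results was not tested. In bulk RNA, a change in the share of cells that express a gene and a change in the RNA of that gene per cell cannot be told apart.

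**Figure D1:**
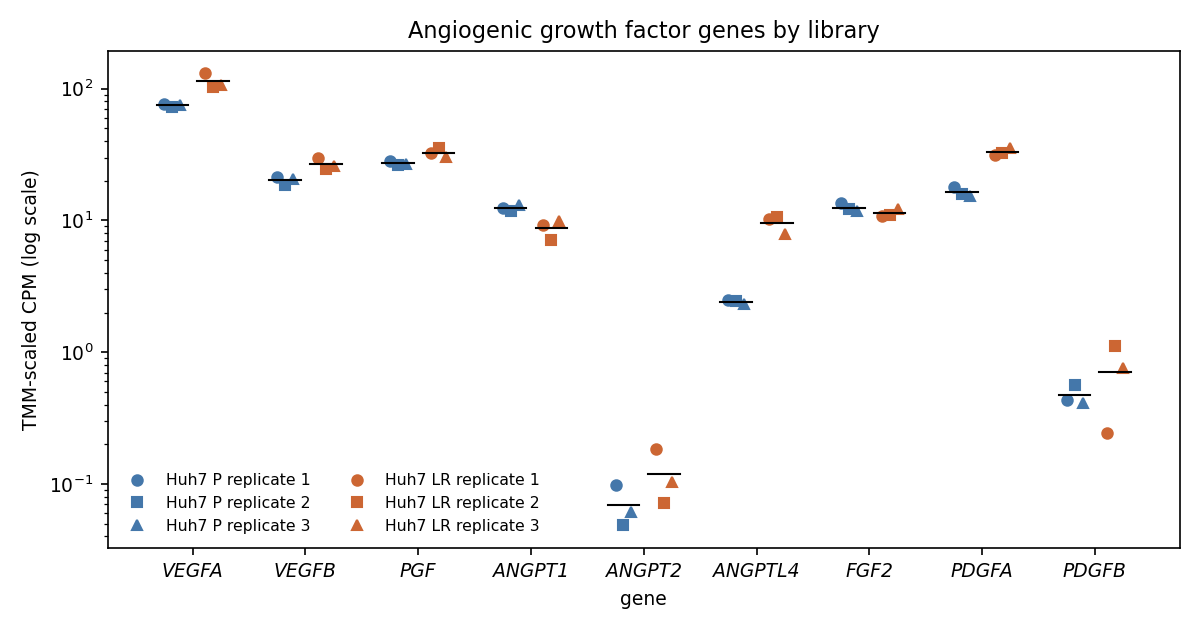
Level of each member with a count, in TMM-scaled CPM on a log axis, in the 3 Huh7 P (blue) and 3 Huh7 LR (orange) libraries, with the replicate number as the symbol and the group mean as a line. ANGPTL4 and PDGFA lay higher in all 3 Huh7 LR libraries with clear gaps, FGF2 and PDGFB overlapped between the lines, and VEGFC is not drawn because it had no count.

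VEGFA encodes the main VEGF ligand, which binds VEGF receptors 1 and 2 and the neuropilins. The gene (ENSG00000112715) lies on chromosome 6 at 43770184 to 43786487 on the plus strand (GRCh38, GENCODE 29, as for all gene positions here). In Huh7 P its level was 76.2, 72.8 and 74.5 CPM, and in Huh7 LR it was 131, 103 and 107 CPM. Every Huh7 LR library was above every Huh7 P library, and Huh7 LR replicate 1 stood above the other two. The means were 74.5 ± 1.70 and 114 ± 14.9 CPM (SD, n = 3 each), a 1.52-fold difference (95% interval 1.33 to 1.75). The log2 fold change was 0.61 (standard error 0.09), with an adjusted p of 0.000279 in edgeR's quasi-likelihood test. VEGFA shares 188 exon bases, 1.30% of its exon length, with AL136131.3 on the opposite strand. No counts were given for that gene, and the library kit does not mark strand, so reads there cannot be assigned to either gene.

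VEGFB, whose product binds VEGF receptor 1 and has been linked to lipid handling and cell survival more than to vessel growth, lies on chromosome 11 at 64234538 to 64238793 on the plus strand. Its level was 21.5, 18.5 and 20.7 CPM in Huh7 P and 29.6, 24.6 and 25.8 CPM in Huh7 LR. The lines did not overlap, and VEGFB rose by 0.39 on the log2 scale (standard error 0.10), with an adjusted p of 0.00636 in edgeR's quasi-likelihood test. PGF, the gene of placental growth factor, another ligand of VEGF receptor 1, lies on chromosome 14 at 74941834 to 74955784 on the minus strand. PGF was at 28.2, 26.3 and 26.9 CPM in Huh7 P and 32.2, 35.5 and 30.0 CPM in Huh7 LR. The lines did not overlap here either, but the gap between the highest Huh7 P and the lowest Huh7 LR library was small. Its log2 fold change was 0.27 (95% interval 0.08 to 0.45, adjusted p 0.0230 in edgeR's quasi-likelihood test), and this was the least secure of the calls. It was lost without Huh7 P replicate 2 (adjusted p 0.0898), without Huh7 P replicate 3 (adjusted p 0.0655) and without Huh7 LR replicate 2 (adjusted p 0.0515).

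VEGFC encodes the lymphatic ligand that binds VEGF receptor 3. The gene (chromosome 4, 176683538 to 176792727, minus strand) had 0 counts in all 6 libraries. Expression in either line was therefore not detectable at this depth.

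On the length-scaled FPKM values of the authors, which allow genes to be set side by side, VEGFA was the highest of the members in both lines, at 21.9 ± 0.564 FPKM in Huh7 P and 33.9 ± 5.04 FPKM in Huh7 LR (SD, n = 3 each). VEGFB followed at 14.5 ± 1.17 and 19.3 ± 2.13 FPKM, and PGF at 14.2 ± 0.876 and 17.4 ± 1.37 FPKM. VEGFB and PGF did not differ beyond their spread in either line. VEGFA, VEGFB and PGF together summed to 50.6 ± 2.32 FPKM in Huh7 P and 70.6 ± 7.73 FPKM in Huh7 LR. VEGFA made up 41.6%, 44.4% and 43.9% of that sum in the parental line, and 49.96%, 46.0% and 47.6% in the resistant line. The shares did not overlap, and their means differed by 4.58 percentage points, with a two-sided exact permutation p of 0.1, the smallest that 3 samples against 3 allow. The share of PGF went from 28.0% to 24.8% and that of VEGFB from 28.7% to 27.3% on average, each with an exact permutation p of 0.2 (n = 3 each). In CPM in place of FPKM the PGF shares, from 22.0% to 22.4% in Huh7 P and from 16.7% to 21.8% in Huh7 LR, did not overlap, with an exact permutation p of 0.1. These 3 shares add up to the whole of that sum, so they are not independent of one another. The sum leaves out VEGFD, a gene of the same family that was not a member, at 0.790 FPKM in Huh7 P and 0.795 FPKM in Huh7 LR on average.

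**Figure D2:**
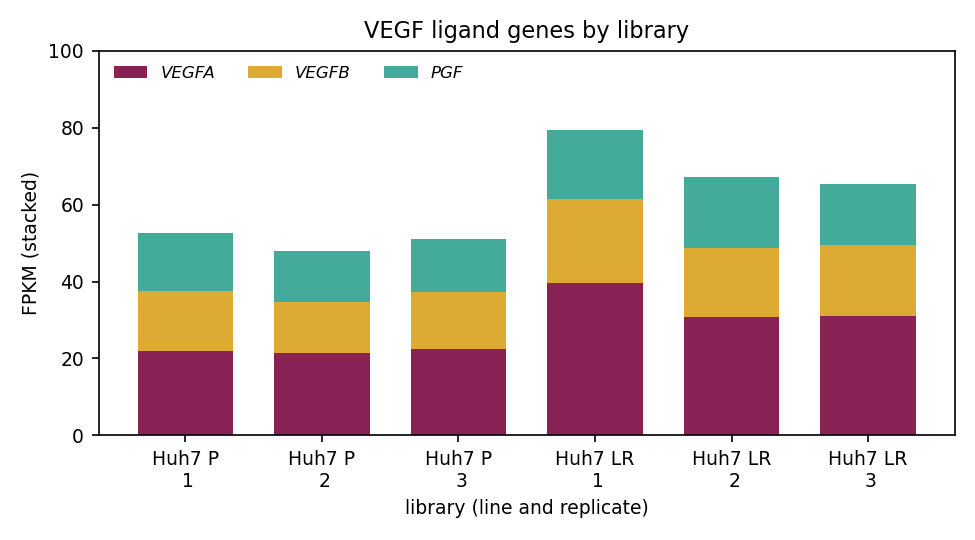
FPKM of VEGFA, VEGFB and PGF stacked for each of the 6 libraries, named by line and replicate. The stack was taller in all 3 Huh7 LR libraries, from 65.3 to 79.5 FPKM, than in the Huh7 P libraries, from 48.1 to 52.6 FPKM, and all 3 layers were thicker on average.

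ANGPT1 encodes angiopoietin-1, the ligand that activates the TIE2 receptor (the TEK gene) and stabilises vessels. It lies on chromosome 8 at 107249482 to 107498055 on the minus strand. ANGPT1 was at 12.4, 11.7 and 13.2 CPM in Huh7 P and at 9.19, 7.09 and 9.82 CPM in Huh7 LR. All 3 Huh7 LR libraries were below all 3 Huh7 P libraries. The log2 fold change was -0.51 (standard error 0.13, 95% interval -0.80 to -0.22), with an adjusted p of 0.00820 in edgeR's quasi-likelihood test. ANGPT1 was the only member called lower.

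ANGPT2 encodes angiopoietin-2, which mostly acts as a context-dependent antagonist at TIE2 and is made mainly by endothelial cells. The gene (chromosome 8, 6499651 to 6563409, minus strand) had counts of 7, 3 and 4 in the Huh7 P libraries and of 12, 5 and 7 in the Huh7 LR libraries. These counts overlapped and were too few for a test, and no ratio to ANGPT1 was computed. ANGPT2 shares 78 exon bases, 1.15% of its exon length, with MCPH1 on the opposite strand, and MCPH1 had 1091 to 1513 counts, so that some of the few ANGPT2 reads cannot be told apart from it.

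ANGPTL4 encodes a secreted angiopoietin-like protein that inhibits lipoprotein lipase, acts on vessel permeability, and is known as a target of the PPARs, of glucocorticoids and of hypoxia. The gene lies on chromosome 19 at 8363289 to 8374373 on the plus strand. Reads counted for ANGPTL4 numbered 180, 151 and 151 for Huh7 P, and 665, 738 and 539 for Huh7 LR, which were 2.51, 2.45 and 2.31 CPM against 10.2, 10.5 and 7.90 CPM. The Huh7 P libraries lay close together, and the lowest Huh7 LR library was far above them. The difference was 3.94-fold (95% interval 3.15 to 4.92), or 1.98 on the log2 scale (standard error 0.15), with an adjusted p of 2.51e-06 in edgeR's quasi-likelihood test. This was the largest change of any member, larger in size than that of 96.7% of all genes and loci tested. In level, ANGPTL4 was at 1.20 FPKM in Huh7 P, above 45.7% of annotated genes, and at 4.92 FPKM in Huh7 LR, above 58.8% of them. Its rank among the members by mean FPKM was 7 in Huh7 P and 5 in Huh7 LR.

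FGF2 encodes basic fibroblast growth factor, which lacks a signal peptide and binds heparan sulphate and the FGF receptors. The gene lies on chromosome 4 at 122826708 to 122898236 on the plus strand. FGF2 was at 13.6, 12.1 and 11.8 CPM in Huh7 P and at 10.8, 10.9 and 12.3 CPM in Huh7 LR, and the lines overlapped. The log2 fold change was -0.14, with a 95% interval of -0.38 to 0.09 and an adjusted p of 0.297 in edgeR's quasi-likelihood test. The interval leaves room for a level from 22.9% lower to 6.38% higher in Huh7 LR. FGF2 shares 804 exon bases, 11.9% of its exon length, with NUDT6, its antisense partner, and the library kit does not mark strand, so reads there cannot be assigned to either gene. NUDT6 itself gave a value of 0.23 on the log2 scale (adjusted p 0.208 in edgeR's quasi-likelihood test), and the counts of both genes summed gave -0.01 (adjusted p 0.919).

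PDGFA encodes the PDGF A chain, which signals mainly through PDGF receptor alpha. The gene lies on chromosome 7 at 497258 to 520296 on the minus strand. PDGFA was at 18.0, 16.0 and 15.4 CPM in Huh7 P and at 31.2, 32.4 and 35.6 CPM in Huh7 LR. The gap between the lines was wide against the spread within each. The means were 16.5 ± 1.39 and 33.1 ± 2.31 CPM (SD, n = 3 each), a 2.01-fold difference (95% interval 1.75 to 2.31). The log2 fold change was 1.01 (standard error 0.09), with an adjusted p of 9.92e-06 in edgeR's quasi-likelihood test. PDGFA passed an adjusted p of 0.05 in all 14 alternative analyses, but its change sat at the 2-fold limit and was above it in 10 of them. It was below, at a log2 fold change of 0.95 to 0.99, without Huh7 P replicate 2, Huh7 P replicate 3 or Huh7 LR replicate 3, and in limma on log2(FPKM + 1). Its level rose from above 64.6% to above 78.3% of annotated genes by FPKM.

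PDGFB encodes the PDGF B chain, the ligand of PDGF receptor beta that attracts pericytes. The gene (chromosome 22, 39223359 to 39244751, minus strand) was weakly expressed, with counts of 31, 35 and 27 in the Huh7 P libraries and of 16, 78 and 52 in the Huh7 LR libraries. These were 0.432, 0.567 and 0.413 CPM against 0.245, 1.11 and 0.762 CPM. Huh7 LR replicate 1 was the lowest of all 6 libraries and Huh7 LR replicate 2 the highest, so the lines overlapped. The log2 fold change was 0.59 with a 95% interval of -0.43 to 1.62 (adjusted p 0.328 in edgeR's quasi-likelihood test). One library decided the value: without Huh7 LR replicate 1 it was 0.99 (adjusted p 0.0293), and without Huh7 LR replicate 2 it was 0.11 (adjusted p 0.879).

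**Figure D3:**
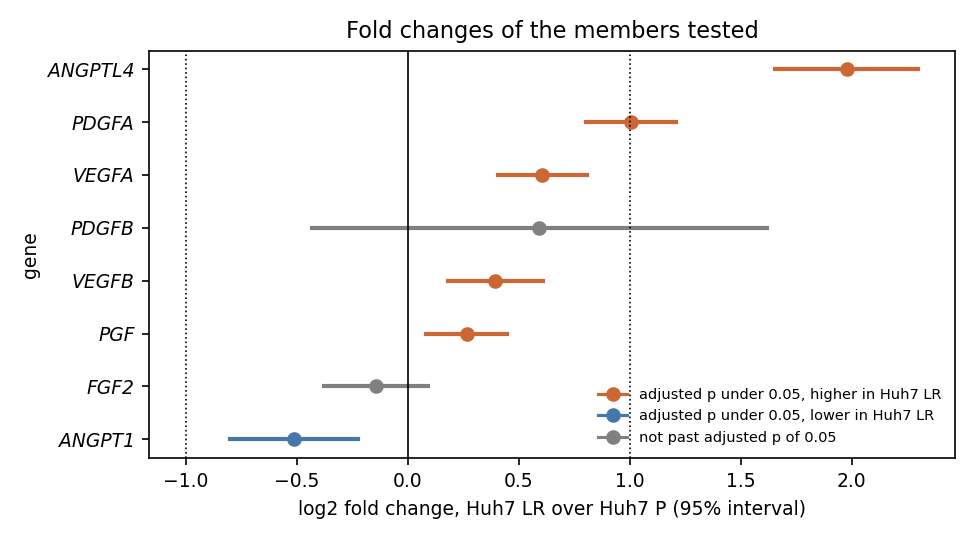
Log2 fold change of Huh7 LR over Huh7 P for the 8 members tested, with its 95% interval from edgeR's quasi-likelihood test. Dotted lines mark a 2-fold change. ANGPTL4 stood apart at 1.98, PDGFA sat on the 2-fold line at 1.01, and the intervals of PDGFB and FGF2 crossed 0.

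Members differed from one another in how their levels were ordered. By mean FPKM the order in Huh7 P was VEGFA, VEGFB, PGF, PDGFA, ANGPT1, FGF2, ANGPTL4, PDGFB and ANGPT2, with VEGFC at 0. In Huh7 LR the same order held except that ANGPTL4 stood above ANGPT1 and FGF2. ANGPT1 was at 4.18 FPKM in Huh7 P and 2.997 FPKM in Huh7 LR, against 1.83 and 1.72 FPKM for FGF2 and 0.141 and 0.220 FPKM for PDGFB. In Huh7 P the FPKM of PDGFA (6.39 to 7.75) and of VEGFB and PGF (13.3 to 15.6) did not overlap, while in Huh7 LR the highest PDGFA value, 16.0 FPKM, was above the lowest PGF value, 15.9 FPKM.

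The receptors for these ligands were examined next, from a list of 19 receptors and co-receptors. FLT1 and KDR (VEGF receptors 1 and 2), TEK (TIE2) and RET had no count in any library, FLT4 (VEGF receptor 3) had 2 counts in 1 library, and KIT had at most 3 counts in any library. TIE1, the TIE2 partner that binds no angiopoietin with high affinity, had 5 counts in each of 2 Huh7 LR libraries and none elsewhere. The VEGF receptor genes and TEK were thus at or below 2 counts in every library. The VEGF co-receptor NRP1 was counted in every library and was lower in Huh7 LR (70.2 and 52.5 CPM on average, log2 fold change -0.42, adjusted p 0.000552 in edgeR's quasi-likelihood test).

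Receptors for PDGF and fibroblast growth factors were expressed and changed in both directions. PDGFRA, the receptor for the PDGF A chain, fell from 6.25 to 2.92 CPM (log2 fold change -1.10, adjusted p 0.000192 in edgeR's quasi-likelihood test) while PDGFA rose. PDGFRB rose from 0.808 to 1.44 CPM (log2 fold change 0.84, adjusted p 0.00953), and PDGFRL, a PDGF receptor-like gene, rose from 4.98 to 10.1 CPM (1.01, adjusted p 6.58e-05). FGFR4, the main fibroblast growth factor receptor of hepatocytes, was the highest of the receptors that lenvatinib inhibits, at 179 FPKM in Huh7 P and 137 FPKM in Huh7 LR, and was lower in Huh7 LR (log2 fold change -0.37, adjusted p 0.00186). FGFR1 also fell (-1.26, adjusted p 5.04e-06), FGFR2 rose (0.90, adjusted p 7.87e-05), and FGFR3, at 103 and 114 FPKM, did not pass the test (0.11, adjusted p 0.228). The integrin genes ITGB3 (1.08) and ITGB5 (-0.25) were called in opposite directions. In all, 12 of the 19 were tested, 4 were higher and 5 lower, and their median log2 fold change was 0.06, beside 23.3% higher and 22.4% lower over all genes and loci tested.

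**Figure D4:**
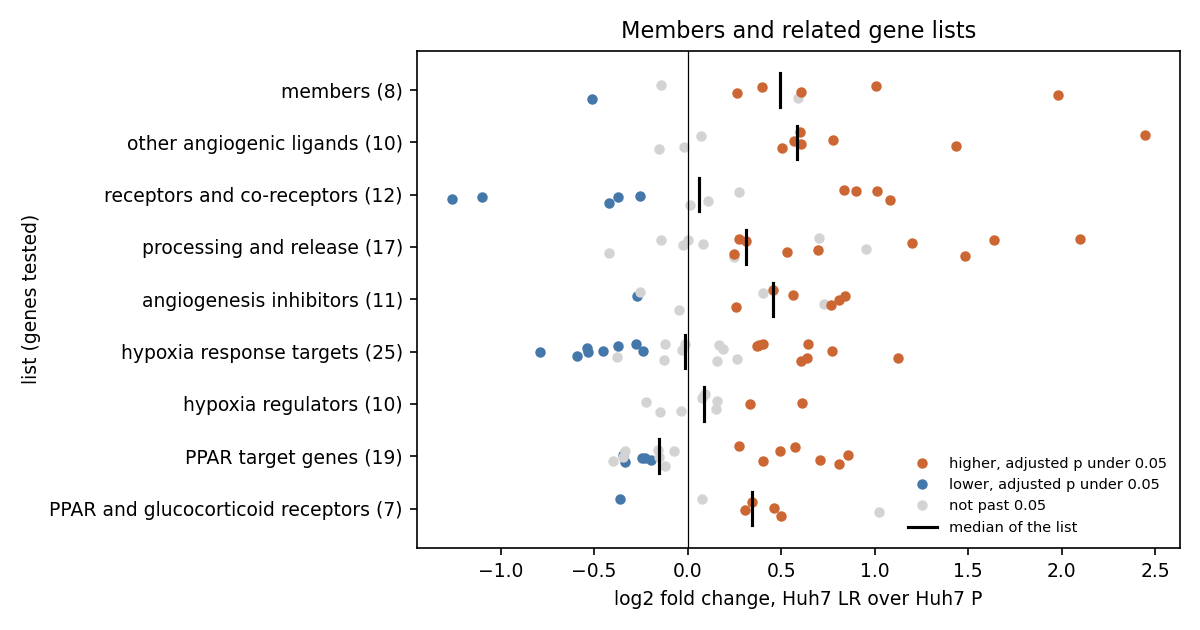
Log2 fold change of every tested gene in the members and in 8 related gene lists, with the list's median as a black line and the number of genes tested in brackets; colours give the call at an adjusted p of 0.05. Calls were mostly on the higher side for the members, the other ligands, the processing genes and the angiogenesis inhibitors, and fell on both sides for receptors, hypoxia targets and PPAR targets.

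Of 15 other angiogenic ligands, 10 were tested, 7 were higher, none was lower, and the median log2 fold change was 0.58. One of the 7, APLN, with 0, 4 and 8 counts in the parental libraries and 29, 18 and 22 in the resistant ones, passed the low-count filter only through Huh7 LR, so its call is tied to its entry. CYR61 and CTGF, matricellular genes known as YAP targets, were among them, at 1.43 (adjusted p 9.37e-05) and 0.78 (adjusted p 3.45e-05 in edgeR's quasi-likelihood test). ADM, the gene of the vasodilator peptide adrenomedullin, rose from 8.29 to 12.6 CPM (0.61, adjusted p 0.00224). ANGPTL2, a secreted glycoprotein linked to inflammation, fell from 2.29 to 0.151 CPM (log2 fold change -3.90, adjusted p 4.09e-06 in edgeR's quasi-likelihood test), opposite to ANGPTL4. With only 5 to 14 counts in each Huh7 LR library, the size of this fall depended on the scale: it was -2.29 on log2(FPKM + 0.1) and -0.59 on log2(FPKM + 1), where the pseudocount shrinks changes of low genes, and a filter of 10 counts in every library left the gene out. ANGPTL2 passed the low-count filter only through Huh7 P, where it is higher, so its call is tied to its entry.

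Genes that process, bind or release these growth factors gave 17 tested of 20, with 9 higher, none lower and a median log2 fold change of 0.31. Among the 9 was ADAMTS3, with 21, 13 and 9 counts in the parental libraries and 63, 52 and 73 in the resistant ones. It passed the low-count filter only with the help of its Huh7 LR libraries, so its call is tied to its entry. PLAU, the gene of urokinase, which activates plasminogen, rose from 3.09 to 9.62 CPM (1.64, adjusted p 5.52e-06 in edgeR's quasi-likelihood test). PLG, the gene of plasminogen itself, rose from 6.06 to 16.9 CPM (1.48, adjusted p 3.34e-05). GPC3, a heparan sulphate proteoglycan of hepatocellular carcinoma, rose by 1.20 on the log2 scale (adjusted p 2.71e-07). Of 16 angiogenesis inhibitors, 11 were tested, 6 were higher, 1 was lower, and the median was 0.45. For this list, the ligands and the processing genes too, the share over all genes and loci tested was 23.3% higher and 22.4% lower, and no list was tested against it. SERPINF1, the gene of the antiangiogenic factor PEDF, rose from 197 to 334 CPM (0.77, adjusted p 9.03e-06), VASH1, the gene of vasohibin-1, rose by 0.81 (adjusted p 0.00398), and SPARC, a matricellular gene, rose by 0.84 (adjusted p 0.0380), from 0.824 to 1.48 CPM. It reached the 1 CPM needed to be named only in Huh7 LR, and its call was lost without any of 4 libraries. AGT, angiotensinogen, fell by 0.27 on the log2 scale (adjusted p 0.00878, lost without Huh7 LR replicate 3).

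VEGFA, ANGPTL4 and PDGFB are known hypoxia targets, so other targets of the hypoxia-inducible factors were set beside them. Of 26 such genes 25 were tested, with 8 higher, 8 lower and a median log2 fold change of -0.01. P4HA2, a collagen prolyl hydroxylase subunit (1.13, adjusted p 1.52e-06), EGLN3, an oxygen-sensing prolyl hydroxylase (0.77, adjusted p 0.00116), and PFKFB4, a regulator of glycolysis (0.64, adjusted p 0.0168, lost without any of 3 libraries and in DESeq2), were higher in edgeR's quasi-likelihood test. LDHA, lactate dehydrogenase A, fell from 901 to 621 CPM (-0.54, adjusted p 0.000112), STC2, stanniocalcin-2, fell by 0.59 on the log2 scale (adjusted p 0.000232), and ALDOC, aldolase C, fell by 0.79 (adjusted p 0.0144, lost without Huh7 P replicate 1). These counts stand beside 23.3% higher and 22.4% lower over all genes and loci tested, which were also near equal. Among 12 regulators of the hypoxia response, 10 were tested, ARNT (0.61, adjusted p 2.94e-05) and EPAS1 (0.33, adjusted p 0.0177, lost without Huh7 P replicate 3) were higher, and none was lower.

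ANGPTL4 is also a PPAR target. Of 21 other PPAR targets listed, 19 were tested, 7 were higher, 5 were lower, and the median log2 fold change was -0.15, beside 23.3% higher and 22.4% lower over all genes and loci tested. ACSL1, an acyl-CoA synthetase (0.86, adjusted p 1.19e-05), FABP1, the liver fatty acid binding protein (0.81, adjusted p 0.000276), and CPT1A, which brings fatty acids into mitochondria (0.71, adjusted p 7.29e-05), were higher in edgeR's quasi-likelihood test. ACADM (-0.35, adjusted p 0.00942, lost in limma) and ACAA2 (-0.24, adjusted p 0.0425, lost without any of 5 libraries), both of fatty acid oxidation, were among those lower. ANGPTL4, at 1.98, changed by more than any of the PPAR targets called. Of 7 PPAR and glucocorticoid receptor genes and partners, PPARD (0.50, adjusted p 0.000716), NR3C1, the glucocorticoid receptor (0.46, adjusted p 0.00401), and RXRB (0.34, adjusted p 0.00796) were among 4 that were higher, and PPARG (-0.36, adjusted p 0.00285) was lower.

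The annotated genes whose centred log2 CPM profile over the 6 libraries was nearest to that of ANGPTL4, among 12292 genes of at least 1 CPM averaged over the 6 libraries, were TAP1 (distance 0.23), RAB17 (0.31) and MMP11 (0.33). TAP1 rose by 2.03 on the log2 scale, RAB17 by 1.89 and MMP11 by 1.88. TAP1, at 0.467 CPM in Huh7 P and 1.91 CPM in Huh7 LR, met that minimum only through its level in Huh7 LR. For ANGPT1 the nearest were ZNF451 (0.08), RSF1 (0.10) and PTBP2 (0.10), with log2 fold changes of -0.47, -0.49 and -0.55. With 2 groups of 3 libraries these distances mostly describe the difference between the lines.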

How the data were processed

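RNA was extracted with TRIzol from 3 samples of Huh7 P and 3 of Huh7 LR cells, and poly(A) libraries were made with the NEBNext Ultra kit. The authors deposited 1 table with raw read counts and FPKM values (fragments scaled by transcript length and depth) per gene and library. The submitters' processing notes name TopHat2, Cufflinks, DESeq and the mouse build mm10, although the table holds human identifiers. The counting program and its strand setting are not given in the sources used here. All 19974 annotated identifiers were found in GENCODE 29, 19910 with the same symbol, and positions come from it (GRCh38). Loci without a gene held 2.86% to 3.35% of the counts, and 34 lines naming no gene were left out.

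Deposited counts were tested in R 4.3.3 with edgeR 4.0.16 (filterByExpr with a minimum count of 10 and total of 15, TMM factors of 0.977 to 1.03, quasi-likelihood test, Benjamini-Hochberg adjustment over 17531 genes and loci). CPM are TMM-scaled. FPKM served to compare genes. Alternatives used DESeq2 1.42.0, limma 3.58.1 on log2(FPKM + 0.1) and log2(FPKM + 1), other filters and each library left out. Scripts were tested on simulated data. Named were all members, receptors that lenvatinib inhibits, genes overlapping a member, up to 3 called genes per direction and list with the largest change at 1 CPM or more, and the 3 genes nearest in profile to ANGPTL4 and ANGPT1. Others, named to spell out a count or a marker list, were chosen after their values were seen. A few genes that this rule selects are not reported here. The members and lists were chosen with earlier results of these data known.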

Additional observations from a re-analysis of the deposited data

How the results depend on the processing

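Directions and calls of the members were stable under most settings: of 110 values for the 8 members tested, 106 kept their direction and side of the threshold, 3 no longer passed (PGF without 1 library) and 1 newly passed (PDGFB without Huh7 LR replicate 1). No tested member reversed. With exon-overlapping genes summed, 2 members were called lower in place of 1, because ANGPT2 took on the far larger counts of MCPH1 (log2 fold change of the sum -0.34). With the stricter threshold of 0.001 and more than 2-fold, 2 members were higher and 0 lower. That 0 stands beside 1 member lower, ANGPT1, with the threshold of 0.05. Leaving out each library in turn gave 4 to 6 members higher and 1 lower, 3349 to 4135 genes and loci higher and 3002 to 3984 lower, and a difference in the VEGFA share of 3.53 to 5.49 percentage points. The log2 fold change of ANGPTL4 was smallest, 1.42, on log2(FPKM + 1), a scale that shrinks changes of low genes (PDGFRA -0.43, COL1A1 0.56, ALDOC -0.28). Of 665 values for the other genes examined singly, 640 kept direction and side and 25 no longer passed. Without 1 library, calls were lost for ACAA2 (5 of the 6 libraries, adjusted p up to 0.155), SPARC and the pericyte marker RGS5 (4 each, up to 0.126 and 0.191), PFKFB4 (Huh7 P replicates 1 and 3 and Huh7 LR replicate 1, up to 0.0761), AGT (Huh7 LR replicate 3, 0.0546), ALDOC (Huh7 P replicate 1, 0.0546), EPAS1 (Huh7 P replicate 3, 0.0693), and MCPH1 (Huh7 P replicate 2, 0.0538). ACAA2 and ACADM also missed the threshold in limma (0.0503 and up to 0.0511), and PFKFB4 in DESeq2 (0.0562). PDGFB fell under the FPKM minimum of 0.5 and has no value there. The ratio of ANGPT2 to ANGPT1 was not run, since ANGPT2 had 3 counts in 1 library. Depth limits ANGPT2 and VEGFC, and PDGFB is limited by low counts and by the spread among its Huh7 LR libraries (16, 78 and 52 counts).

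With the replicate number as a block, 5 members were higher and 1 lower, and 4089 genes and loci were higher and 4033 lower. The deviations of same-numbered samples from the mean of their line correlated at 0.029, 0.0314 and 0.0317. Those of differently numbered samples correlated at -0.0279 to -0.0021. Each sample correlated best with its own number, a hint from the data and not from the design. Since deviations are taken from the mean of each line, these values are not independent of one another, and whether the samples were paired was not tested.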

Other observations

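The genes around the called members on their chromosomes are given here beside the shares of 23.3% higher and 22.4% lower over all genes and loci tested. The neighbours are annotated genes only, while these shares include loci without an annotated gene. The shares among annotated genes alone were not computed. Around PDGFA, near the end of chromosome 7, 21 tested neighbours had a median log2 fold change of 0.36, with 13 higher and 2 lower in Huh7 LR. Around ANGPTL4, 40 neighbours (20 on each side) had a median of 0.07, with 9 higher and 6 lower. Around VEGFA the median of 40 neighbours was 0.0056, with 11 higher and 10 lower, and around ANGPT1 it was -0.19, with 10 higher and 16 lower. Around VEGFB the median of 40 neighbours was 0.06, with 11 higher and 6 lower, and around PGF it was 0.03, with 10 higher and 7 lower.

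The transcript length implied by the counts and FPKM of PDGFB was 3.73 to 3.86 kilobases in 4 libraries but 2.74 kilobases in Huh7 P replicate 2 and 2.58 in Huh7 LR replicate 3, so that its FPKM and CPM order the libraries differently. For ANGPTL4 the implied length was 1.93 to 2.03 kilobases in all 6 libraries, and for PDGFA 2.23 to 2.37.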
